A study of Mus musculus with 4 samples.

Results

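Disease-associated oligodendrocytes are nuclei with the RNAs of myelinating oligodendrocytes that also hold C4b, a complement component, or Serpina3n, a secreted inhibitor of serine proteases. A nucleus was counted here as a member when it had at least 500 unique molecular identifiers (UMIs, counted molecules), at most 5% mitochondrial UMIs, at least 3 of the 5 oligodendrocyte RNAs Mog, Mag, Mobp, St18 and Prr5l, at most 1 of Aqp4, Slc4a4, Pdgfra, Inpp5d and Flt1 (markers of other glia and of vessels), at most 3 UMIs of the neuronal genes Syt1 and Rbfox3 together, and at least 2 UMIs of C4b and Serpina3n together. The rule found 942 members among 10930 nuclei of this oligodendrocyte gate and 32048 barcodes in all. They were set against the 8808 nuclei of the same gate without a UMI of C4b or Serpina3n, called nuclei at 0, and 1180 nuclei with 1 UMI lay between. C4b and Serpina3n chose the members, so their values are given as a description without a test.

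The nuclei came from frozen mouse hippocampus and were profiled with the 10x Genomics 3′ method. Wild-type (WT) mice gave 1 library. PS19 mice, which carry human MAPT with the P301S change (1N4R tau) under the prion protein promoter Prnp on a B6;C3 background, gave 2 libraries, replicates 1 and 2. TG_PS19 mice carry that transgene and, in the Rosa26 locus, a SORLA transgene driven by a CMV/β-actin promoter, and gave 1 library. The groups were littermates of the crosses, and tissue was pooled within groups. The series title calls the mice aged, whereas the labels give neither the age nor the sex nor the number of animals in a pool, and leave unsaid if each PS19 library had a pool of its own. P-values therefore measure the spread between these libraries, which may be technical.

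Oligodendrocytes wrap axons with myelin, and their RNA is dominated by genes for myelin proteins and lipids. In mouse models of amyloid or tau pathology and of demyelination, a share of them switches on C4b, Serpina3n and genes of antigen presentation, and Serpina3n and C4b are also known from reactive astrocytes. C4 is cleaved in the classical and lectin complement pathways, whereas Serpina3n binds and inactivates serine proteases. Signalling through the transcription factors STAT3 and NF-kB drives acute-phase genes of this kind in other tissues.

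The libraries held 4643 to 12762 barcodes with a median of 2643 to 3709 UMIs. Of 31947 distinct barcodes 100 occurred in more than 1 library, and no barcode was a member in more than 1 library. Between the PS19 libraries, the summed members differed by more than sampling noise, at a chi-square of 1.94 for each degree of freedom (10447 genes). Xist, the RNA of the inactive X chromosome, was at 742 CPM in TG_PS19 members (UMIs scaled to a total of 1000000 over the summed nuclei) and at 0, 6.92 and 0.650 CPM in WT and PS19 replicates 1 and 2, and Y-linked UMIs were found in 28, 303, 307 and 5 members of WT, PS19 replicate 1, PS19 replicate 2 and TG_PS19. The TG_PS19 library thus held nuclei of both sexes, and results that rest on it are also given for its Y-linked nuclei where this changed a call. The transgenes followed the labels: in nuclei at 0, human SORL1 was at 49.0 CPM in TG_PS19 and at 0 elsewhere, and human MAPT was at 11.7, 16.8 and 10.2 CPM in the tau libraries and 0 in WT.

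Members were common in both PS19 libraries and rare in the other 2. They made up 24.0% of the oligodendrocyte gate in PS19 replicate 1 (453 of 1887 nuclei, exact Clopper-Pearson 95% interval 22.1% to 26.0%) and 22.2% in PS19 replicate 2 (431 of 1944, 20.3% to 24.1%). The share was 1.01% in WT (37 of 3681, 0.709% to 1.38%) and 0.614% in TG_PS19 (21 of 3418, 0.381% to 0.938%). The PS19 intervals overlapped each other and lay apart from those of WT and TG_PS19, which overlapped. These intervals cover counting error only, and WT and TG_PS19 have no replicate. After every nucleus was thinned to 1000 UMIs, the shares were 0.193%, 7.16%, 4.84% and 0.0306% in WT, PS19 replicates 1 and 2 and TG_PS19, with 62, 16, 1 and 150 shallower nuclei left out. Within TG_PS19 the share was 0.575% among nuclei with Y-linked UMIs only (5 of 869) and 0.441% among those with Xist only (6 of 1362). The low share therefore held in both kinds of nuclei.

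**Figure D1:**
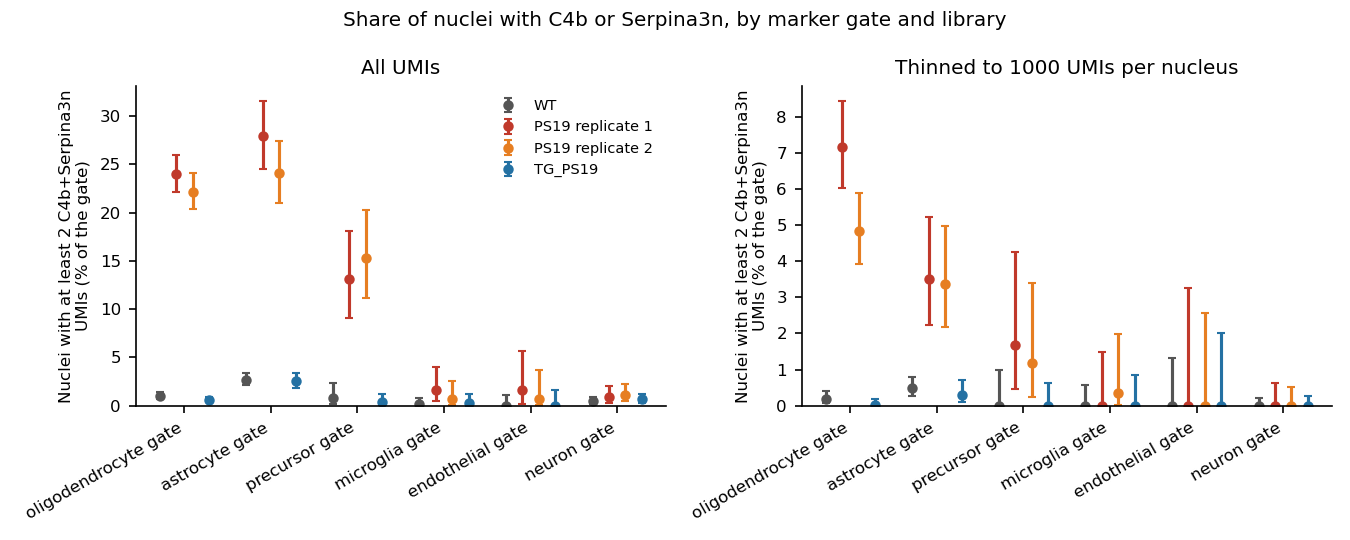
Share of nuclei with at least 2 UMIs of C4b and Serpina3n (percent of the gate, vertical axis) in 6 marker gates and 4 libraries, from all UMIs (left) and after thinning to 1000 UMIs (right). Points are single libraries and bars exact 95% binomial intervals. In the oligodendrocyte gate both PS19 libraries stand at 24.0% and 22.2% and WT and TG_PS19 at 1.01% and 0.614%.

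In astrocytes and precursors, too, both PS19 libraries stood above WT and TG_PS19. Among astrocyte-gate nuclei, at least 2 UMIs were found in 27.9% and 24.1% of PS19 replicates 1 and 2, in 2.68% of WT and in 2.55% of TG_PS19. Precursor-gate nuclei stood at 13.1% and 15.3% in PS19, 0.804% in WT and 0.333% in TG_PS19. Neurons, which should lack C4b, gave a reference at greater depth, and their UMIs were mostly of Serpina3n in WT (110 against 42 of C4b). Their shares were 0.444%, 0.861%, 1.14% and 0.642% in WT, PS19 replicates 1 and 2 and TG_PS19, at medians of 7523, 8934, 10697 and 8442 UMIs. Thinned to 1000 UMIs, at least 1 UMI was found in 3.32%, 25.7%, 19.8% and 2.75% of oligodendrocyte-gate nuclei and in 0.944%, 1.55%, 1.14% and 1.14% of neurons. At this threshold of 1 UMI, the oligodendrocyte shares lay above those of neurons in all 4 libraries, without overlap of the exact intervals, and by far the most in PS19. At the 2 UMIs of the rule, unthinned, the intervals overlapped in WT (0.709% to 1.38% against 0.192% to 0.874%). TG_PS19 oligodendrocytes then stood at 0.614% against 0.642% of its neurons. Thinned, the intervals at 2 UMIs overlapped in both WT and TG_PS19, so neither is shown to exceed neurons there. After thinning, the oligodendrocyte share in PS19 replicate 1 (7.16%, 6.03% to 8.43%) lay above that of astrocytes (3.52%, 2.24% to 5.23%), whereas in replicate 2 the intervals overlapped (3.93% to 5.89% against 2.17% to 4.96%).

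Most members were chosen by C4b. C4b alone was found in 32, 378, 352 and 19 members of WT, PS19 replicates 1 and 2 and TG_PS19, both genes in 5, 72, 77 and 1, and Serpina3n alone in 0, 3, 2 and 1. Over the whole oligodendrocyte gate, C4b (chr17:34728380-34743882, minus strand, GRCm38) was at 308 CPM (exact Poisson 95% interval 293 to 324) and 228 CPM (216 to 240) in PS19, 30.7 CPM (27.1 to 34.7) in WT and 25.1 CPM (21.8 to 28.9) in TG_PS19. Serpina3n (chr12:104406729-104414329, plus strand) was at 23.4 CPM (19.4 to 28.0) and 16.6 CPM (13.6 to 19.97) in PS19, 3.82 CPM (2.62 to 5.40) in WT and 2.75 CPM (1.72 to 4.17) in TG_PS19. For both genes, the PS19 values stood above the other libraries and WT overlapped TG_PS19. In neurons Serpina3n was at 6.92 to 7.75 CPM in all 4 libraries, above the oligodendrocyte values of WT and TG_PS19. Reads that match both C4b and its close copy C4a cannot be placed with certainty, and C4a had 0, 3, 4 and 0 UMIs in the members.

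The overlap of both genes is given as a description, since nuclei with a C4b UMI were also deeper. Of PS19 nuclei with a C4b UMI, 72 of 824 and 77 of 810 also held Serpina3n, against 2.63% and 2.03% of the nuclei without C4b. In WT the counts were 5 of 212 nuclei with C4b (2.36%) and 0.778% without it. Nuclei just inside the rule, with 2 UMIs, numbered 26, 234, 230 and 17 in WT, PS19 replicates 1 and 2 and TG_PS19, and those just outside it, with 1 UMI, 202, 399, 402 and 177. In PS19, C4b was at 698 and 540 CPM just inside and at 361 and 283 CPM just outside. The highest count in 1 nucleus was 10 in PS19 replicate 1 and 8 in replicate 2, against 4 in WT and 3 in TG_PS19.

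RNA of mature oligodendrocytes was abundant in members. Mbp, the myelin basic protein, was at 3405, 3842, 3961 and 2867 CPM in the members of WT, PS19 replicates 1 and 2 and TG_PS19, and at 3977, 4081, 4081 and 3525 CPM in nuclei at 0. It was abundant in members of every library and did not pass the test between members and nuclei at 0. The 15 myelin genes outside the rule summed to 17326, 18744, 17543 and 14967 CPM in members. In nuclei at 0 they summed to 18653, 19553, 17720 and 17915 CPM, above the members in every library. These sums were not tested. The PS19 libraries hold 453 and 431 of the 942 members. In PS19 the median member had 2663 and 3316 UMIs against 2418 and 3042 in nuclei at 0, and in WT and TG_PS19 2531 and 3684 against 2040 and 2067. Detection of a marker of another class was also more frequent in WT and TG_PS19 members (32.4% and 23.8%, against 18.4% and 14.8% of their nuclei at 0) than in PS19 members (9.49% and 11.6%, against 8.50% and 9.45%).

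Members were then compared with nuclei at 0 within libraries, with counts summed over nuclei, the library as a block and edgeR's quasi-likelihood test. At an adjusted p under 0.05 over 11942 genes, 130 genes were higher and 71 lower in members, or 1.68% of those tested (925 genes at an unadjusted p under 0.05, and 33 calls with DESeq2). Restricted to the PS19 pair, a fit chosen after seeing the data, 208 were higher and 152 lower of 11926 (3.02%), with 148 calls in common and 64 calls by DESeq2. The second fit had 1 residual degree of freedom, from the 2 PS19 libraries, so its p-values rest on little replication. It is quoted beside the first because WT and TG_PS19 contribute 37 and 21 members. The lists below were chosen with earlier results of these data known, and their counts are a description beside the 1.09% of genes called higher and 0.595% called lower (1.74% and 1.27% in PS19 alone).

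The transcription factors Stat3, Bcl3 and Cebpd were called higher in members, 3 of 10 tested genes of their list. Stat3, which carries signals of cytokine receptors of the IL-6 family, was at 145, 171, 196 and 37.1 CPM in members of WT, PS19 replicates 1 and 2 and TG_PS19, and at 63.8, 99.1, 95.5 and 50.5 CPM in nuclei at 0. Members were higher in WT and both PS19 libraries, and lower in TG_PS19, where the value rests on 3 UMIs. The log2 difference was 0.89 ± 0.13 (SE, edgeR adjusted p = 6.25e-08), and the call held in 13 of 16 alternatives, with adjusted p from 1.97e-13 to 0.406. Bcl3, a partner of NF-kB p50 and p52, was at 8.54, 28.5, 35.7 and 0 CPM in members and at 1.93, 6.19, 5.41 and 0.668 CPM in nuclei at 0. The rise was clear in both PS19 libraries, while the members of WT and TG_PS19 held 1 and 0 UMIs. Its log2 difference was 2.43 ± 0.37 over 4 libraries (edgeR adjusted p = 4.91e-07). Cebpd, a factor of the acute-phase response, was at 17.1, 40.8, 42.9 and 12.4 CPM in members and 9.93, 20.04, 17.6 and 8.95 CPM in nuclei at 0. It was higher in both PS19 libraries, while the WT and TG_PS19 values rest on 2 and 1 UMIs and resolve no rise. The log2 difference was 1.12 ± 0.24 (edgeR adjusted p = 0.00109).

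On GRCm38, Stat3 lies at chr11:100885098-100939540 and Bcl3 at chr7:19808462-19822770, both on the minus strand, and Cebpd at chr16:15887286-15891031 on the plus strand. At least 1 UMI of Stat3 was found in 29.6% and 45.2% of the members of PS19 replicates 1 and 2, and of Bcl3 in 5.74% and 8.82%, so most members held no Bcl3 UMI at this depth. Of the 10 tested genes on the list of cytokine receptors, STAT3 and NF-kB genes, these 3 were called higher and none lower, and all 10 differences were above 0, with a median of 0.18 against -0.02 over all genes. In PS19 alone, 4 of 12 were called higher. The fourth was Socs3, the feedback inhibitor that STAT3 induces, at 15.4 and 12.3 CPM in PS19 members and 0.729 and 4.33 CPM in nuclei at 0. Its log2 difference was 2.36 ± 0.52 (edgeR adjusted p = 0.0103). Both PS19 libraries showed the rise, at low counts of 20 and 19 UMIs in members.

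H2-D1, a heavy chain of the MHC class I molecules that present peptides to CD8+ T cells, was at 59.7, 164, 139 and 12.4 CPM in members and 26.6, 68.5, 52.7 and 19.6 CPM in nuclei at 0. It was higher in members of WT and both PS19 libraries, and the TG_PS19 value rests on 1 UMI. The difference was 1.28 ± 0.15 on the log2 scale (edgeR adjusted p = 2.01e-11) and was called in 15 of 16 alternatives. Its close relative H2-K1 was at 34.1, 31.5, 27.9 and 12.4 CPM in members and 7.74, 22.2, 18.4 and 8.95 CPM in nuclei at 0, and did not pass the test. Reads that match both of these related genes cannot be placed with certainty, so their separate levels are uncertain. Of 10 tested MHC class I genes, H2-D1 alone was called, and 9 of 10 differences were above 0. The 250 bases before the transcription start of both genes are shown because both belong to 1 list and 1 of the 2 was called; they come from RefSeq (GRCm38.p6), at chr17:35262844-35263093 on the plus strand for H2-D1 and chr17:34000348-34000597 on the minus strand for H2-K1. Capitals mark overlapping matches to the kappa B consensus, the sequence bound by NF-kB, searched on both strands.
H2-D1: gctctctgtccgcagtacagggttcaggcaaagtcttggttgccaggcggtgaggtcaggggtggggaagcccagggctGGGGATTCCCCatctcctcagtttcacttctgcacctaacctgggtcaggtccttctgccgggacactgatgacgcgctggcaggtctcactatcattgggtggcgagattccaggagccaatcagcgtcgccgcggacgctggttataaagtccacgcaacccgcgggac
H2-K1: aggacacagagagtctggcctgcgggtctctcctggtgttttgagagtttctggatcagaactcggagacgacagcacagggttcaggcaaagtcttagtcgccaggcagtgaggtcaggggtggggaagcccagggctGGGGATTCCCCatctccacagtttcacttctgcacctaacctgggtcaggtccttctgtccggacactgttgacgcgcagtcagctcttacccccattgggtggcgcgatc

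The same letters stand 171 bases before the start in H2-D1 and 111 bases before it in H2-K1. The motif was found in 3.75% of 27025 mouse promoters of this length. Among the named genes with a promoter in that table, it was found in 2 of 20 that were higher in members and in 2 of 14 that were lower. The motif TTCNNNGAA, bound by STAT factors, was in 1 of 20 and 0 of 14, against 7.18% of all promoters. A match is a description of letters and was not tested as a binding site.

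Genes that earlier work ties to this oligodendrocyte state rose with C4b in PS19. Klk6, a secreted serine protease of oligodendrocytes, was at 0, 69.2, 32.5 and 12.4 CPM in members and 5.80, 15.7, 6.76 and 4.01 CPM in nuclei at 0. Both PS19 libraries were higher in members, whereas TG_PS19 held 1 UMI and WT 0 UMIs, which allows up to 25.6 CPM. Its log2 difference was 2.05 ± 0.27 (edgeR adjusted p = 4.10e-09), and 11.7% and 7.42% of PS19 members held a UMI. Klk6 lies at chr7:43824499-43832030 and Il33 at chr19:29925114-29960718, both on the plus strand. Il33, a nuclear cytokine released on cell damage, was at 555, 645, 628 and 358 CPM in members and 439, 422, 430 and 330 CPM in nuclei at 0. Members were higher in all 4 libraries by CPM and in 3 after TMM scaling, with a difference of 0.43 ± 0.12 (edgeR adjusted p = 0.0189) that passed in 8 of 16 alternatives (adjusted p from 9.54e-06 to 1.00). In PS19 alone it was 0.59 ± 0.06 (edgeR adjusted p = 5.98e-07).

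Over the 4 libraries, 3 of 15 tested genes of this list were called higher (H2-D1, Klk6 and Il33) and none lower. In PS19 alone 9 of 15 were called higher and none lower, with a median of 0.56 against -0.00 over all genes. Trf, the iron carrier transferrin, was at 2723 and 1888 CPM in PS19 members and 1943 and 1340 CPM in nuclei at 0, a difference of 0.50 ± 0.04 (edgeR adjusted p = 1.10e-08). Apod, a lipid-binding lipocalin, was at 1416 and 1148 CPM against 973 and 754 CPM, a difference of 0.58 ± 0.04 (edgeR adjusted p = 2.06e-08). The members of each PS19 library stood above its nuclei at 0 for both genes. Plin4, a coat protein of lipid droplets, was at 66.2 and 65.0 CPM against 40.4 and 41.9 CPM and was called as well (0.68 ± 0.15, edgeR adjusted p = 0.0108). The tetraspanins Cd9 and Cd63 (0.35 ± 0.07 and 0.48 ± 0.10) were called too, and the ninth was Socs3, described above. H2-D1 and Socs3 are also counted in lists above, and Klk6, Il33, Trf and Apod in lists of oligodendrocyte types below. The counts of these lists are therefore not separate. The list's summed level in TG_PS19 was lower in members (3028 CPM) than in nuclei at 0 (3523 CPM), while in PS19 it was higher (6923 and 5297 against 5144 and 3900 CPM). The direction in TG_PS19 turned with the gate: members stood at 3805 against 3653 CPM without doublets and at 3783 against 3619 CPM with the strict gate, beside the astrocyte markers given further on.

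Several genes outside the lists were higher in members with values in all 4 libraries. Piezo2, a mechanically gated ion channel, was at 59.7, 56.2, 92.3 and 37.1 CPM in members of WT, PS19 replicates 1 and 2 and TG_PS19, and at 14.3, 18.9, 12.7 and 10.7 CPM in nuclei at 0. Every member value exceeded every value at 0. The log2 difference was 2.19 ± 0.22 (edgeR adjusted p = 1.46e-14), it was called in 16 of 16 alternatives, and it carried 7 and 3 UMIs in WT and TG_PS19. A Piezo2 UMI was found in 10.6% and 17.2% of PS19 members. The gene model Gm3417 behaved alike, at 34.1, 53.1, 68.9 and 24.7 CPM in members and 7.48, 12.4, 14.9 and 7.48 CPM in nuclei at 0 (2.13 ± 0.23, edgeR adjusted p = 8.59e-13). Snx10, a sorting nexin of endosomes, was at 34.1, 23.9, 31.2 and 12.4 CPM against 8.77, 9.11, 10.0 and 9.49 CPM (1.504 ± 0.297, edgeR adjusted p = 0.000241). For all 3 genes the TG_PS19 members stood lowest of the 4 libraries. Their values lay at or under the 37.1 CPM that a count of 0 allows in TG_PS19, so neither this order nor a rise within TG_PS19 is resolved.

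Masp1, a serine protease of the lectin complement pathway, was picked from the PS19 fit after its values were seen. It was at 25.6, 61.5, 62.4 and 61.8 CPM in members and 15.1, 21.5, 22.2 and 11.9 CPM in nuclei at 0. The members were higher in every library by CPM, with a log2 difference of 1.501 ± 0.211 (edgeR adjusted p = 2.98e-08), and the call held in 16 of 16 alternatives. The WT value only equals the 25.6 CPM that a count of 0 allows there and resolves no rise. Adamtsl3, a matrix protein also picked in this way, was at 53.1 and 47.4 CPM in PS19 members against 11.7 and 15.7 CPM (1.85 ± 0.20 in PS19, edgeR adjusted p = 4.07e-06), and at 8.54 CPM against 14.4 CPM in WT, where it had 1 UMI. Of the other complement genes, 0 of 8 tested were called over the 4 libraries (7 of 8 differences were above 0), and in PS19 alone 1 of 7, Clu, was called (0.49 ± 0.13, edgeR adjusted p = 0.0463), a call lost with the strict gate (0.18, edgeR adjusted p = 0.789) and without doublets (0.15, edgeR adjusted p = 0.810).

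**Figure D2:**
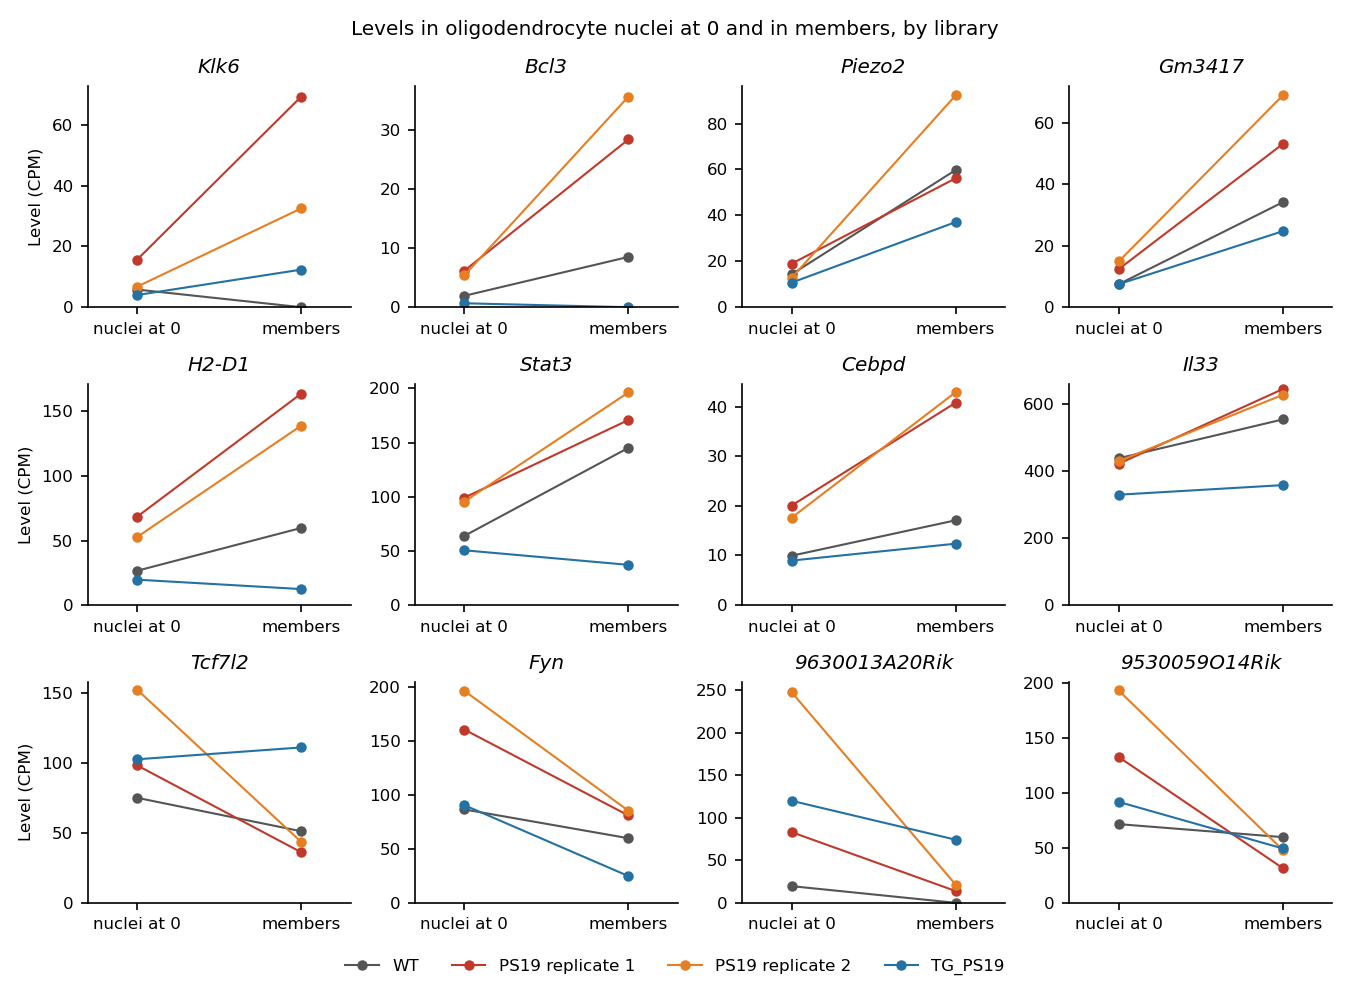
Level in CPM (vertical axis, from 0) of 12 genes in nuclei at 0 and in members, with 1 line per library. The upper 8 genes rise toward members in both PS19 libraries, and the lower 4 fall in them, with Tcf7l2 flat in TG_PS19 at 103 and 111 CPM.

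Of 8 tested genes of newly formed oligodendrocytes, 3 were lower in members over the 4 libraries. Tcf7l2, a Wnt-pathway factor of premyelinating cells, was at 51.2, 36.2, 43.5 and 111 CPM in members and 75.2, 98.4, 153 and 103 CPM in nuclei at 0. Members were lower in WT and in both PS19 libraries, and slightly higher by CPM in TG_PS19, with 9 UMIs. The log2 difference was -1.48 ± 0.17 (edgeR adjusted p = 3.85e-12), called in 13 of 16 alternatives. Fyn, a kinase that couples axon contact to myelination, was at 59.7, 80.8, 85.1 and 24.7 CPM against 86.4, 160, 196 and 90.3 CPM. It was lower in members of all 4 libraries, by -1.09 ± 0.14 on the log2 scale (edgeR adjusted p = 7.31e-10), and 25 of its 131 UMIs in PS19 replicate 2 members came from 1 nucleus. Bmp4, a growth factor of committed precursors, was at 0.769 and 3.90 CPM in PS19 members against 14.2 and 10.3 CPM (1 and 6 UMIs in members), and its call (-2.07 ± 0.57, edgeR adjusted p = 0.0293) held in 6 of 11 alternatives.

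None of the list was called higher over the 4 libraries, and its median was -0.62. Without doublets its summed level was 1120 CPM in WT members against 1040 CPM at 0, and 931 and 913 against 1324 and 1405 CPM in PS19. Markers of oligodendrocyte precursors moved with it in PS19 without doublets, at 123 and 173 CPM in members against 309 and 403 CPM at 0. With the strict gate they stood at 129 and 183 against 290 and 373 CPM. With the gate as described, PS19 replicate 1 was lower too (247 against 348 CPM), whereas replicate 2 was higher (541 against 443 CPM). Single precursor markers differed, with Tnr lower (-1.31 ± 0.15) and Lhfpl3 higher (1.13 ± 0.12) in PS19 members. The part of precursor markers in the difference was not tested. In PS19 alone 5 of 9 newly formed oligodendrocyte genes were lower, with Bcas1 (-0.28 ± 0.05) and Itpr2 (-0.57 ± 0.15) besides, and the median was -1.10. Of the other genes called lower, the protein-coding D430041D05Rik differed by -3.73 ± 0.45 over the 4 libraries (edgeR adjusted p = 8.69e-11) and by -3.94 ± 0.44 in PS19 alone. Htr2c differed by -3.04 ± 0.46 over the 4 libraries (edgeR adjusted p = 3.60e-07). It had no test in PS19 alone or with the strict gate, so its fall is not shown for the PS19 members by themselves. The antisense RNA 9630013A20Rik was at 0, 13.8, 21.4 and 74.2 CPM in members and 19.6, 83.1, 247 and 120 CPM in nuclei at 0 (-3.05 ± 0.20, edgeR adjusted p = 1.64e-26). The long intergenic RNA 9530059O14Rik was at 59.7, 31.5, 48.1 and 49.4 CPM against 71.6, 133, 193 and 91.8 CPM (-1.89 ± 0.16, edgeR adjusted p = 2.41e-18). Both were lower in members of PS19 replicates 1 and 2 and of TG_PS19. In WT, 9530059O14Rik was lower too, whereas the 0 UMIs of 9630013A20Rik allow up to 25.6 CPM and show no fall. Tmem163, a zinc transporter, and Robo2, a receptor for axon guidance cues, were also lower (-1.70 ± 0.20 and -1.39 ± 0.30).

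In PS19 the levels could be followed over nuclei with 0, 1, 2, 3 and at least 4 UMIs of C4b and Serpina3n. Piezo2 went from 18.9 and 12.7 CPM at 0 over 23.2 and 39.3 at 1, 46.2 and 82.6 at 2 and 42.1 and 86.3 at 3 to 91.7 and 122 at 4 or more, in replicates 1 and 2. Stat3 was at 99.1 and 95.5 CPM at 0, 155 and 125 at 1, and 156 to 215 at 2 or more. Nuclei with 1 UMI thus lay above nuclei at 0 for both genes. 9530059O14Rik went from 133 and 193 CPM at 0 over 60.8 and 96.4 at 1 and 35.1 and 56.3 at 2 to 12.6 and 41.8 at 4 or more. Tcf7l2 stood at 98.4 and 153 CPM at 0, at 54.0 and 74.9 at 1, and between 24.7 and 50.8 beyond. H2-D1 went from 68.5 and 52.7 CPM at 0 over 93.6 and 77.2 at 1 to 188 and 134 at 2, without a steady order after that. The bins were not tested.

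**Figure D3:**
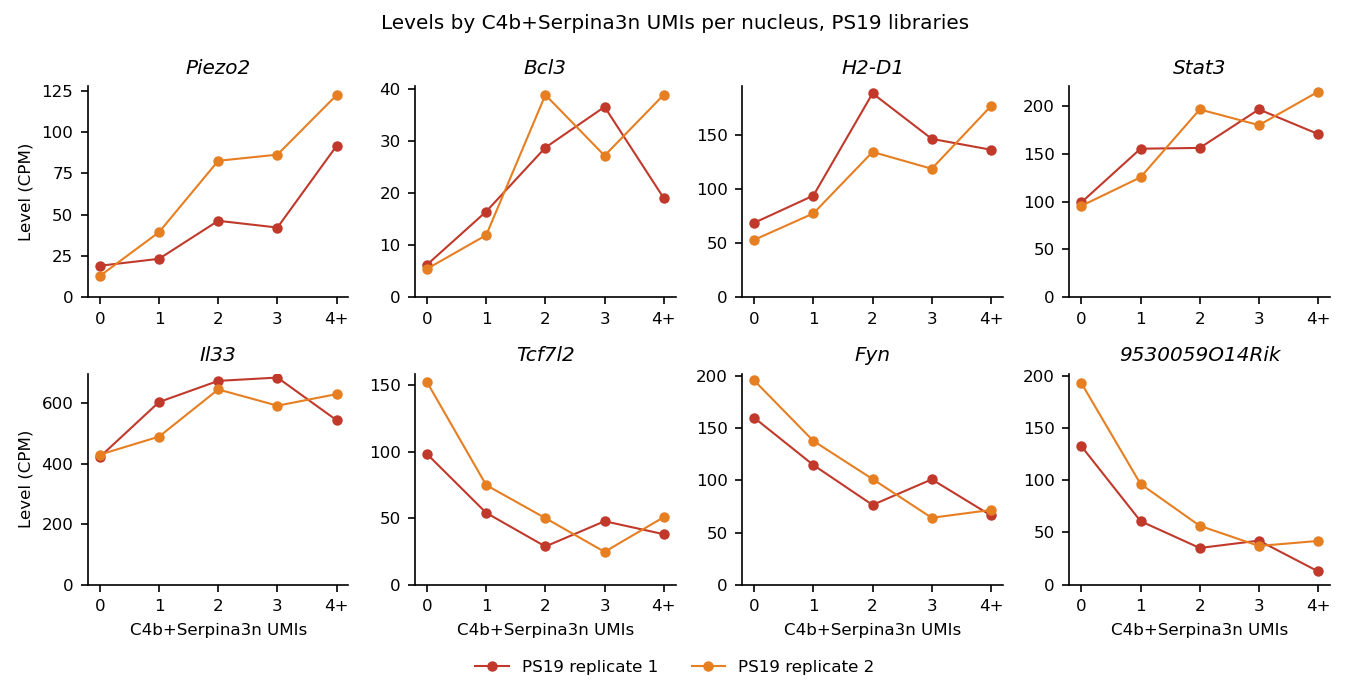
Level in CPM (vertical axis, from 0) of 8 genes against the number of C4b and Serpina3n UMIs per nucleus (horizontal axis) in the 2 PS19 libraries, as sums over the nuclei of each bin. Piezo2 rises to 91.7 and 122 CPM at 4 or more UMIs, and 9530059O14Rik falls to 12.6 and 41.8 CPM.

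Other lists are given by their calls. Of 15 myelin genes outside the rule none was called over the 4 libraries, and in PS19 alone 3 were called higher by small differences: Cldn11 (0.36 ± 0.05), Opalin (0.35 ± 0.07) and Tspan2 (0.23 ± 0.05). The summed level of this list, given above, was lower in members of every library. Of 20 sterol and fatty acid synthesis genes none was called over the 4 libraries and 1 in PS19 (Acaca, 0.21 ± 0.05). None of 10 unfolded protein and integrated stress response genes (9 tested in PS19 alone) and none of 6 immediate early and heat shock genes passed in either fit. Among 8 interferon-stimulated genes 1 was called, Ddx60, with 12 and 18 UMIs in PS19 members and 2 and 1 in WT and TG_PS19 (1.98 ± 0.51, edgeR adjusted p = 0.0133, called in 7 of 10 alternatives with adjusted p from 0.00425 to 0.999). None of the 10 genes of the Serpina3 cluster besides Serpina3n was abundant enough to be tested. Among genes for oligodendrocyte support of axons and ion transport, Gjc3 was called lower over the 4 libraries (-0.43 ± 0.11, edgeR adjusted p = 0.0166). It was called lower in PS19 alone as well (-0.32 ± 0.05), where Car2 of that list was called higher (0.30 ± 0.04). Of the genes of Il33/Opalin-type oligodendrocytes, 5 of 9 were called higher in PS19 alone (Trf, Apod, Il33, Car2 and Opalin). Trf, Apod and Il33 are also on the disease-associated list, so their rise is not particular to either list. Over the 4 libraries Il33 kept its call, whereas Trf, Apod, Car2 and Opalin did not pass. Ptgds of the same list was called lower there (-0.57 ± 0.12, edgeR adjusted p = 0.000629). Of the Hapln2/Anln-type genes, in PS19 alone, 1 of 9 was higher (Klk6) and 1 lower (Serpinb1a).

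Markers of other cell classes were unequal between libraries. The summed level of 10 astrocyte markers was 2586, 626, 687 and 4190 CPM in members of WT, PS19 replicates 1 and 2 and TG_PS19, and 1778, 567, 478 and 1449 CPM in nuclei at 0. With a strict gate, which allows no marker of another class, members stood at 845, 412, 274 and 423 CPM and nuclei at 0 at 954, 437, 370 and 673 CPM, so the members were no longer the higher group in any library. The astrocyte markers Gpc5 and Slc1a2, called higher over the 4 libraries (1.25 ± 0.13 and 0.93 ± 0.12), turned to -0.62 and -0.26 without called doublets, and Sgcd turned from 1.71 to -0.48. Stat3, H2-D1, Piezo2, Tcf7l2 and Fyn kept their direction and their call in PS19 under the strict gate, at 1.03 ± 0.11, 1.47 ± 0.13, 2.15 ± 0.20, -1.84 ± 0.17 and -1.01 ± 0.12. Calls higher made up 64.7% of all calls, but 43.9% without doublets and 39.6% with the strict gate. Of 9 microglia markers tested none was called in either fit. The mural and fibroblast marker Bnc2 was called higher over the 4 libraries (1.77 ± 0.47, edgeR adjusted p = 0.0177). In PS19 alone it was called without doublets (2.90 ± 0.78, edgeR adjusted p = 0.00631) but not with them (0.155). The precursor marker Lhfpl3 stayed higher over the 4 libraries with the strict gate (0.54 ± 0.16, edgeR adjusted p = 0.0398), whereas Tnr stayed lower (-2.89 ± 0.18).

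**Figure D4:**
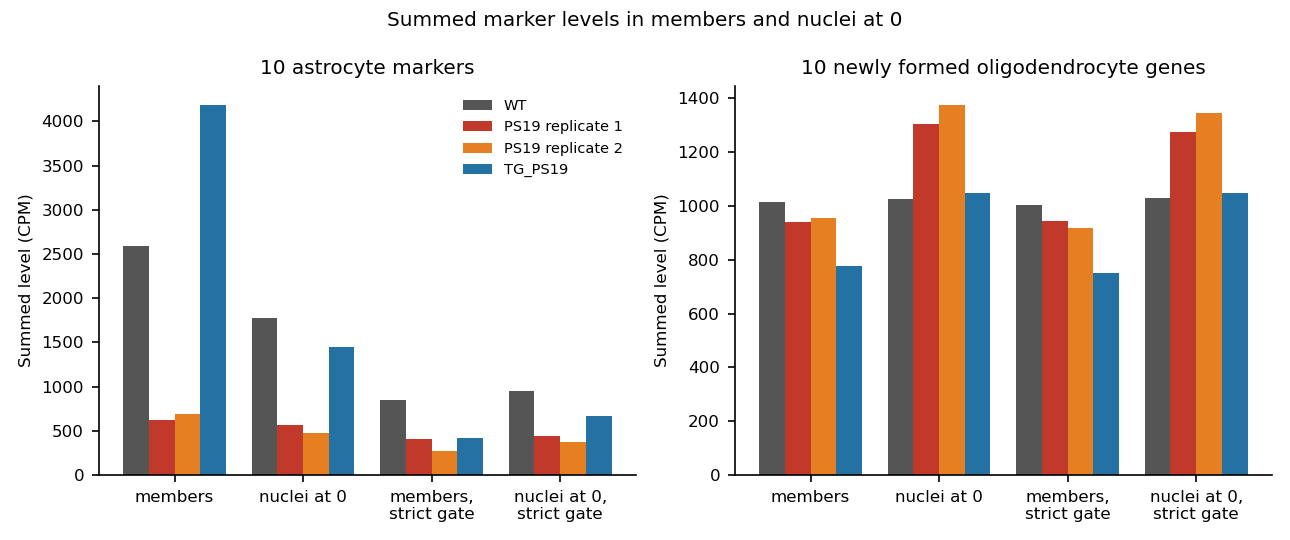
Summed level in CPM (vertical axis, from 0) of 10 astrocyte markers (left) and 10 newly formed oligodendrocyte genes (right) in members and nuclei at 0, for the gate as described and for the strict gate, with 1 bar per library. Astrocyte markers reach 4190 CPM in TG_PS19 members and 423 CPM with the strict gate.

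Members were next compared between genotypes, which rests on 37 WT and 21 TG_PS19 nuclei. In PS19 against WT, 98 genes were higher (0.986%) and 153 lower (1.54%) of 9944 tested, 2.52% in all, but 7 genes passed with the strict gate and 9 with DESeq2. Calls higher made up 39.0% with TMM scaling, 27.9% with DESeq2's size factors and 21.1% with library totals. Without doublets they made up 74.5%, and with the strict gate 57.1%, so the direction of most calls turned with the nuclei kept. Apod was at 743 CPM in WT members, against 1416 and 1148 CPM in PS19, with both PS19 values above WT (0.93 ± 0.20, edgeR adjusted p = 0.000353, and 0.0594 with the strict gate, in a range of 1.19e-06 to 1.00 over 10 alternatives). H2-D1, at 164 and 139 CPM in PS19 and 59.7 CPM in WT members, missed the threshold (1.48 ± 0.44, edgeR adjusted p = 0.0524). Klk6 and Plin4 had 0 UMIs in WT members. Against the limit of 3 counts in WT, 25.6 CPM, PS19 was at least 2.56-fold higher for Plin4. For Klk6 the PS19 libraries, at 69.2 and 32.5 CPM, both lay above that limit but differed too much for a common bound. Of 10 astrocyte markers 5 were lower in PS19 members and none higher, beside the summed levels given above, and their part in the other calls was not tested.

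In TG_PS19 against PS19, 205 genes were higher (2.06%) and 90 lower (0.905%) of 9944, 2.97% in all, and 13 passed with the strict gate, 24 with DESeq2 and 187 with Y-linked TG_PS19 nuclei only. The share of higher calls was 69.5%, but 35.5% without doublets, 38.5% with the strict gate and 38.0% with Y-linked nuclei only. The direction of most calls thus turned with the nuclei kept. Ptgds, the prostaglandin D synthase of oligodendrocytes, was at 803 CPM in TG_PS19 members and 2630 and 1951 CPM in PS19 members. The TG_PS19 value was below both (-1.60 ± 0.22, edgeR adjusted p = 4.22e-11), and the call held in 10 of 10 alternatives. Apod, at 494 CPM against 1416 and 1148 CPM, and Trf, at 1100 CPM against 2723 and 1888 CPM, were also lower in TG_PS19 (-1.46 ± 0.24 and -1.15 ± 0.20) and each was called in 8 of 10 alternatives. Stat3 had 3 UMIs in TG_PS19 members, a ratio to the pooled PS19 members of 0.201 (exact interval 0.0413 to 0.590), and H2-D1 had 1 UMI, a ratio of 0.0822 (0.00208 to 0.460). Both were called (edgeR adjusted p = 0.0053 and 0.00133) but not with the strict gate (0.236 and 0.0535, in ranges of 0.00154 to 1.00 and 0.000268 to 1.00). Of 14 disease-associated genes tested 4 were called lower and none higher. Of 10 astrocyte markers 5 were called higher, and the part of such RNA in the differences was not tested. TG_PS19 against WT gave 76 calls (0.764%; 61 higher, 0.613%, and 15 lower, 0.151%), 7 with the strict gate and 0 with DESeq2 (55 at an unadjusted p under 0.05). Here the share of higher calls was 80.3%, but 42.9% both without doublets and with the strict gate.

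The same genes were followed in nuclei at 0, where each library holds at least 1035 nuclei and C4b and Serpina3n are absent by the rule. H2-D1 was at 68.5 and 52.7 CPM in PS19, against 26.6 CPM for WT and 19.6 CPM for TG_PS19. Both PS19 values lay above the other libraries, with a log2 difference of 1.24 ± 0.19 to WT (edgeR adjusted p = 1.38e-08) and of -1.59 ± 0.20 for TG_PS19 against PS19 (edgeR adjusted p = 1.21e-12). Stat3 was at 63.8, 99.1, 95.5 and 50.5 CPM in WT, PS19 replicates 1 and 2 and TG_PS19 (0.67 ± 0.15 for PS19 against WT, edgeR adjusted p = 0.000438; -0.93 ± 0.16 for TG_PS19 against PS19, edgeR adjusted p = 4.55e-07). Cdkn1a, the p21 inhibitor of the cell cycle, was at 0.774, 16.03, 19.5 and 3.74 CPM, and Plin4 at 9.93, 40.4, 41.9 and 12.6 CPM. PS19 stood above WT and TG_PS19 for these genes as well (4.55 ± 0.50 and 2.12 ± 0.25 against WT). In PS19 members Cdkn1a was at 16.2 and 16.2 CPM, within the range of the PS19 nuclei at 0.

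Among nuclei at 0, 5 of 10 genes of newly formed oligodendrocytes were called higher in PS19 than in WT and none lower. Fyn was at 160 and 196 CPM in PS19, against 86.4 CPM for WT and 90.3 CPM for TG_PS19 (1.12 ± 0.14 for PS19 against WT, edgeR adjusted p = 6.54e-12). Tcf7l2 stood at 75.2, 98.4, 153 and 103 CPM, with TG_PS19 between the PS19 values (0.82 ± 0.15 for PS19 against WT, edgeR adjusted p = 3.19e-06). Precursor markers stood higher in PS19 as well, at 309 and 403 CPM against 171 CPM in WT without doublets, and at 290 and 373 against 169 CPM with the strict gate, and their part was not tested. In all, 1120 of 16827 genes were called between PS19 and WT (6.66%), with 315 higher (1.87%) and 805 lower (4.78%), and 1424 between TG_PS19 and PS19 (8.46%), with 1086 higher (6.45%) and 338 lower (2.01%). The part of astrocyte and neuron RNA in these counts was not tested, and 9 of 10 astrocyte and 7 of 10 neuron markers were lower in PS19 than in WT. Between TG_PS19 and WT 328 genes were called (1.95%; 238 higher, 1.41%, and 90 lower, 0.535%), of which 72.6% were higher with TMM scaling and 53.8% with library totals.

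Whether the difference between members and nuclei at 0 itself depended on genotype was tested with an interaction term. It was called for 157 of 15152 genes between PS19 and WT (1.04%; 0.746% higher and 0.29% lower) and for 183 between TG_PS19 and PS19 (1.21%; 0.323% higher and 0.884% lower), but for 0 and 0 genes with DESeq2, where 55 and 91 had an unadjusted p under 0.05. Calls higher made up 72.0% between PS19 and WT with TMM scaling, 39.5% with DESeq2's size factors and 31.6% with library totals. For TG_PS19 minus PS19 these shares were 26.8%, 61.8% and 80.4%. The median of all genes lay at 0.32 and -0.62 on the log2 scale, so directions of single genes are not read from this test. Fewer nuclei of a kind and less RNA per nucleus cannot be told apart in summed counts.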

How the data were processed

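Single-nucleus RNA of 4 hippocampal libraries was analysed from the deposited matrices of UMI counts per gene and barcode. The authors made these counts with Cell Ranger 7.1.0 on GRCm38, per the submitters' processing notes. Other filters are not given in the sources used here. Of 55403 features, 54349 matched GENCODE M21 names.

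Members, nuclei at 0 and the other gates were selected from marker UMIs in each nucleus as described above. Members and gene lists were chosen with earlier results of these data known. Counts were summed per library and population, since nuclei are not replicates. Summed counts were tested with edgeR 4.0.16 (quasi-likelihood test, TMM scaling, filterByExpr, Benjamini-Hochberg adjustment, threshold 0.05) in R 4.3.3, with the genes of the rule left out. The within-library fit had 8 sums, the library as a block and 3 residual degrees of freedom. Restricted to the PS19 pair, it had 1 residual degree of freedom. Genotype fits took their spread from the PS19 libraries (1 residual degree of freedom), so WT and TG_PS19 were assumed to vary like PS19. The fits were tested on simulated data. Alternatives were DESeq2 1.42.0, scaling, low-count filter, prior, residual degrees of freedom, doublets (Scrublet in scanpy 1.11.5, 0.8% per 1000 nuclei), a strict gate, at least 3 UMIs, Y-linked TG_PS19 nuclei only, depth-matched nuclei at 0, no block and single libraries left out. Doublets were kept otherwise, with 8, 20, 18 and 5 called among members of WT, PS19 replicates 1 and 2 and TG_PS19.

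Summed members held 117164, 1299774, 1538958 and 80910 UMIs, so that a count of 0 (limit of 3 counts) allows 25.6, 2.31, 1.95 and 37.1 CPM. Named genes were the 10 with the highest and the 10 with the lowest differences among those called, with the same sign in 4 libraries and at least 20 CPM, 8 per direction for genotypes, 5 per interaction, and up to 4 called genes per list. Genes named from the PS19 pair alone were chosen after their values were seen. One item is not reported here.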

Additional observations from a re-analysis of the deposited data

Results flagged for a closer look

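Of the 157 and 183 genes called by the interaction test, the 5 with the largest absolute differences in each are given here. Each of these 10 stood against a member sum of 0 UMIs, which allows up to 25.6 CPM in WT and 37.1 CPM in TG_PS19. No size of a difference is therefore given. Between PS19 and WT these were Sntg1 (edgeR adjusted p = 0.00887), Chrm3 (0.0319), Runx2 (0.0107), Nxph1 (0.0229) and Kcnb2 (0.0379), each with 0 UMIs in the 37 WT members. Between TG_PS19 and PS19 they were Hectd4 (edgeR adjusted p = 0.00223), 7630403G23Rik (0.00435), E530011L22Rik (0.0129), Nrg1 (0.0262) and Ppp4r1l-ps (0.0224), each with 0 UMIs in the 21 TG_PS19 members. Hectd4 was at 68.3, 112 and 96.2 CPM in the members of WT and PS19 replicates 1 and 2, and PS19 was at least 2.79-fold higher than the limit of 3 counts in TG_PS19. All 5 genes of each interaction lost the call with DESeq2, with adjusted residual degrees of freedom, without doublets, with the strict gate and at 3 or more UMIs. DESeq2 called no gene in either interaction, with 55 and 91 genes at an unadjusted p under 0.05.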

How the results depend on the processing

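No paired analysis was possible because WT and TG_PS19 have 1 library each, so no 2 groups share 2 replicate numbers. Genotype values without a PS19 replicate have no residual degrees of freedom and no test. The cause of the changes below was not tested. WT and TG_PS19 members are few (37 and 21), which limits every genotype comparison in members.

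Members against nuclei at 0 gave 201 calls, against 33 with DESeq2, 80 with adjusted residual degrees of freedom, 87 with depth-matched nuclei at 0, 6 without the library block and 53 to 257 with 1 library left out (53 without PS19 replicate 2 and 72 without PS19 replicate 1). In the PS19 pair, chosen after seeing the data, there were 360, with 461 under the strict gate, 505 without doublets and 64 with DESeq2. PS19 against WT in members fell from 251 to 9 with DESeq2, 47 without doublets and 7 with the strict gate. TG_PS19 against PS19 in members fell from 295 to 24, 31 and 13 in that order, to 184 at 3 or more UMIs and to 187 with Y-linked nuclei only. TG_PS19 against WT in members fell from 76 to 0, 14 and 7, and to 25 and 36. In nuclei at 0, PS19 against WT gave 123 with DESeq2, 701 without doublets and 463 with the strict gate. TG_PS19 against PS19 gave 124 with DESeq2, 449 with the strict gate and 726 with Y-linked nuclei, and TG_PS19 against WT 13, 126 and 183. The interaction of PS19 and WT gave 0 with DESeq2, 81 with DESeq2's size factors in edgeR, 95 with library totals, 26 with adjusted degrees of freedom, 39 without doublets, 42 with the strict gate and 248 at 3 or more UMIs. That of TG_PS19 and PS19 gave 0, 102, 107, 27, 27 and 45 for the first 6 of these, and 121 without a low-count filter. At 3 or more UMIs the shares were 0.299%, 11.6%, 10.3% and 0.117% in WT, PS19 replicates 1 and 2 and TG_PS19, and after thinning 0.193%, 7.16%, 4.84% and 0.0306%.

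Log2 differences that changed sign between members and nuclei at 0 were Sgcd (-0.48 without doublets, -0.65 strict, and in PS19 -1.03 strict and -0.59 without doublets), Gpc5 (-0.62 without doublets, -0.37 in PS19), Slc1a2 (-0.26, -0.23 strict, in PS19 -0.23 strict and -0.28), Ptprz1 (-0.78, -0.85 strict, in PS19 -0.88 strict and -0.81) and Rbfox1 (-0.47, -0.35 strict, -0.53 at 3 or more UMIs, in PS19 -0.23 strict and -0.29). For TG_PS19 against PS19 in members they were Ptprz1 (-6.18 strict), Lhfpl3 (-8.90 at 3 or more UMIs, -0.89 Y-linked), Tnr (-0.28 without doublets, -0.46 strict, -6.66 at 3 or more UMIs, -1.79 Y-linked) and Rbfox1 (-6.66 and -1.08). For TG_PS19 against WT in members they were Gpc5 (-0.32 strict), Lhfpl3 (-9.01 and -0.035), Tnr (-5.86 and -0.23) and Ptprz1 (-1.71 without doublets, -8.28 strict). In nuclei at 0 they were Mecom (-0.077 without doublets, -1.96 Y-linked, and -1.26 Y-linked against WT), Atp13a5 (-0.26 and -0.23) and Lhfpl3 (-0.29 strict).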
